A study of Homo sapiens with 6 samples.

Results

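The genes that make and move lactate were followed in DLD-1, a human colorectal adenocarcinoma cell line, after siRNA transfection aimed at the long non-coding transcript lncSLCC1. They were 8 genes, chosen by symbol from the 56638 symbols of the count tables: the lactate dehydrogenase genes LDHA, LDHB and LDHD, the monocarboxylate transporter genes SLC16A1, SLC16A3 and SLC16A7, and BSG and EMB, which encode the chaperones that carry these transporters to the plasma membrane. RNA-seq read counts came from 3 libraries of cells transfected with lncSLCC1 siRNA and 3 libraries of cells transfected with control siRNA. The sample titles name the same line for both groups and no modification of it, so the siRNA was the stated difference between them. Neither the siRNA sequences nor the time after transfection are known from the labels. Nothing in the labels ties the 3 libraries of a group to separate cultures; p-values therefore measure the spread between libraries, and that spread may be technical.

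Lactate dehydrogenase interconverts pyruvate and lactate while it interconverts NADH and NAD+. Subunits A, from LDHA, and B, from LDHB, mix in tetramers, A-rich forms being typical of glycolytic tissue and B-rich forms of tissue that oxidises lactate, such as heart. Lactate crosses the plasma membrane together with a proton through MCT1 (SLC16A1) and MCT4 (SLC16A3), which need basigin (BSG) at the cell surface, and through MCT2 (SLC16A7), whose partner is embigin (EMB). MCT4 is known as an exporter of strongly glycolytic cells, and MCT1 also takes up butyrate in the colon. LDHD encodes a mitochondrial enzyme that oxidises D-lactate, the mirror form made from methylglyoxal.

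Reads assigned to genes numbered 12572277 to 15262872 in lncSLCC1 siRNA libraries and 14873343 to 15568075 in control siRNA libraries, and 15242 genes had enough reads for testing. The targeted RNA, RP11-400N13.2, stood at 1.66 to 2.62 CPM (counts scaled to a common library size) after lncSLCC1 siRNA and at 5.20 to 9.31 CPM in controls. Summed epithelial markers (9 genes, all with reads) held 5900 to 6229 CPM after lncSLCC1 siRNA and 5796 to 7221 CPM in controls, and VIL1, the villin gene, was the only one of them called, as higher. Fibroblast markers summed to at most 3.27 CPM in any library, with PDGFRA, DCN and LUM at 0 in all 6, immune markers to at most 2.34 CPM, and endothelial markers to at most 2.06 CPM, with PECAM1 and KDR at 0. PDGFRB, a fibroblast marker under 2 CPM in every library, was called higher and passed the filter on low counts in 1 of 3 controls. Control replicate 1 differed most from the other libraries of its group: ribosomal protein genes held 4.85% of its gene reads, against 4.10% and 3.61% in control replicates 2 and 3 and 3.51% to 3.68% after lncSLCC1 siRNA. The part of VIL1, PDGFRB or this library's makeup in the values below was not tested; the main results are also given without control replicate 1.

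LDHA, LDHB, SLC16A3 and BSG fell by similar amounts. After lncSLCC1 siRNA they stood at 79.4%, 79.7%, 74.8% and 76.0% of their control means, in that order. For each of the 4, all lncSLCC1 siRNA libraries lay below all controls, which 19.6% of tested genes did; LDHD lay above without overlap, like 19.4%. SLC16A1 did not pass the test, and SLC16A7 and EMB were at or near 0 reads. LDHD had few reads and was called higher, but it could enter the test only by being higher after lncSLCC1 siRNA. Of the 8 genes 6 had enough reads for testing; 4 were called lower and 1 higher at an adjusted p under 0.05 in edgeR's quasi-likelihood test, where 7.39% of all tested genes were called lower and 6.46% higher. Their median log2 fold change was -0.33, against 0.01 over all tested genes. In RNA from bulk cells, fewer cells of one kind and less RNA per cell cannot be told apart. Summed over the 8 genes, the level was 3262 ± 95.7 CPM after lncSLCC1 siRNA and 4055 ± 252 CPM in controls (SD, n = 3 each), or 0.326% to 0.344% of gene reads after lncSLCC1 siRNA and 0.383% to 0.410% in controls.

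**Figure D1:**
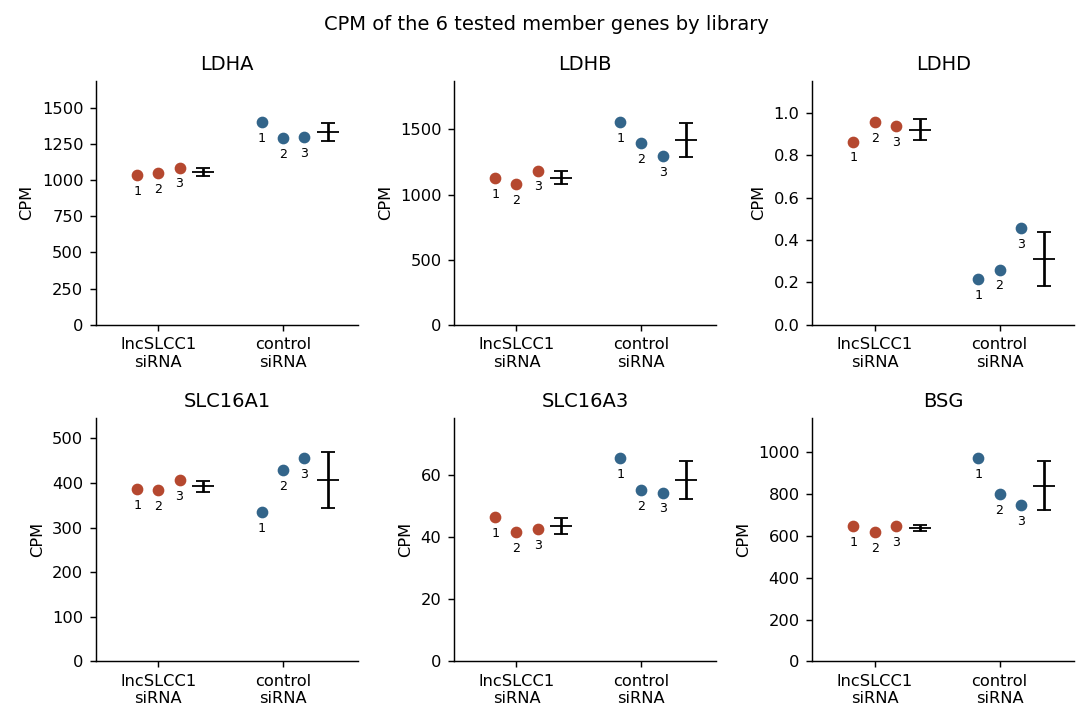
CPM (vertical axes, each from 0) of the 6 tested genes in each library, with lncSLCC1 siRNA on the left and control siRNA on the right; digits are replicate numbers, and the black bar is the mean with its SD (n = 3). LDHA, LDHB, SLC16A3 and BSG have all 3 lncSLCC1 siRNA libraries below the controls, SLC16A1 overlaps because control replicate 1 is the lowest library at 336 CPM, and LDHD is higher at under 1 CPM.

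Because the 4 genes called lower moved together, a promoter window of each is shown as RefSeq gives it for assembly GRCh38.p14. Each window holds 250 bases before and 50 bases after an annotated start. Windows exist for 5 of the 8 genes; SLC16A1, LDHD and EMB have none in the table. Where a gene has several, the one nearest to a start of a best-supported principal transcript in GENCODE release 29 was taken; which start these cells use was not measured, and the count tables rest on another genome build. Capitals mark ACGTG and GCGTG on either strand. ACGTG is a form of the core of the hypoxia response element, which may also begin with G. GCGTG is thus another form of it, and is the core of the element bound by the aryl hydrocarbon receptor. CACGTG, the E-box bound by MYC and MAX, contains ACGTG on both strands.
LDHA, chr11:18394313-18394612, plus strand: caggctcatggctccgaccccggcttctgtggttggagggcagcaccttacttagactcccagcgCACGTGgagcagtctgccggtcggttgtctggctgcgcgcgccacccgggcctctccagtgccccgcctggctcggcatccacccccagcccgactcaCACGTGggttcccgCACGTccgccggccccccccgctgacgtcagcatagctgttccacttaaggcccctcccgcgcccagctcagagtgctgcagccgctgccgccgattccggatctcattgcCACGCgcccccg
LDHB, chr12:21657793-21658092, minus strand: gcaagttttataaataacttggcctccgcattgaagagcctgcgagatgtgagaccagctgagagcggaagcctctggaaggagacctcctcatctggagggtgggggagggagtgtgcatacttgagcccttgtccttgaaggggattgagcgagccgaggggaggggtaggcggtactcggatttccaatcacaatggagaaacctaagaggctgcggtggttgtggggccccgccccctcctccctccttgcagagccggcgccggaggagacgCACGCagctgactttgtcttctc
SLC16A3, chr17:82228792-82229091, plus strand: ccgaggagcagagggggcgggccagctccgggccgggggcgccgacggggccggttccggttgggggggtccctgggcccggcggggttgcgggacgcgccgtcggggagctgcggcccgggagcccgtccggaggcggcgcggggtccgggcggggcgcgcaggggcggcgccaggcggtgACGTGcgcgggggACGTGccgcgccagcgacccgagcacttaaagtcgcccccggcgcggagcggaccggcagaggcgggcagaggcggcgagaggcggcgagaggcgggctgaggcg
BSG, chr19:572346-572645, plus strand: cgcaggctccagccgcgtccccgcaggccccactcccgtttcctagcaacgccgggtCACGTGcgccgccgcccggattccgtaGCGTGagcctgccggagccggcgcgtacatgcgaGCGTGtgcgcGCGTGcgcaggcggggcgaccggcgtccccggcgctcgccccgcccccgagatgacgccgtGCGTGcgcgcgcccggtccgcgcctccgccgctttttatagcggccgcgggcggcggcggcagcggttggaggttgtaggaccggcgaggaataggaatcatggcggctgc

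The LDHA window holds CACGTG at 2 places, which begin at bases -185 and -87 from its annotated start. The BSG window holds it at 1, at base -193. The annotated start of the LDHA window shown lies 175 bases from a principal start. That of the other LDHA window, which is not shown, lies 203 bases from one, and it holds 0 CACGTG, 0 ACGTG and 1 GCGTG. The LDHA matches thus depend on the window taken. Of all 35116 windows of 300 bases, 7.26% hold CACGTG and 0.664% hold it at 2 or more places. ACGTG outside an E-box occurs 2 times in the SLC16A3 window and 1 time in that of LDHA, against 15.5% of all windows with such a match. The LDHB window has no ACGTG, inside an E-box or outside; 21.4% of all windows hold one in either place. GCGTG occurs 4 times in the BSG window, 1 time each in those of LDHA and LDHB and not in that of SLC16A3. At least 1 match is held by 36.5% of all windows. Windows with several matches of GCGTG, or of ACGTG outside an E-box, were not counted. None of the 3 words stands in all 4 windows, but each window holds ACGTG or GCGTG. The share of all windows with either of these was not computed. A match is a description of the letters only.

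Among the dehydrogenases, LDHA had 1035, 1051 and 1088 CPM in lncSLCC1 siRNA replicates 1, 2 and 3, against 1406, 1291 and 1302 CPM in control siRNA replicates 1, 2 and 3. The groups did not overlap, and control replicate 1 was the highest library. LDHA averaged 1058 ± 27.2 CPM after lncSLCC1 siRNA and 1333 ± 63.5 CPM in controls (SD, n = 3 each), a log2 fold change of -0.33 with an SE of 0.074 and a 95% interval of -0.50 to -0.17 (edgeR, adjusted p = 0.0182). These values rest on 13962 to 16466 reads per lncSLCC1 siRNA library and 19750 to 20007 reads per control library, a counting error of 0.707% to 0.846% per library.

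LDHB had 1124, 1083 and 1184 CPM in lncSLCC1 siRNA replicates 1, 2 and 3, against 1560.2, 1397 and 1297 CPM in control replicates 1, 2 and 3. All lncSLCC1 siRNA libraries again lay below all controls, and the controls were the more scattered group. Its mean was 1130.5 ± 50.6 CPM after lncSLCC1 siRNA and 1418 ± 133 CPM in controls (SD, n = 3 each; log2 fold change -0.33 with an SE of 0.087 and a 95% interval of -0.52 to -0.13; edgeR, adjusted p = 0.0366).

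The proportion of A to B subunit transcripts differed by less than it varied among controls. LDHA made up 47.9%, 49.3% and 47.9% of the reads of LDHA plus LDHB in lncSLCC1 siRNA replicates 1, 2 and 3, against 47.4%, 48.0% and 50.1% in control replicates 1, 2 and 3. The 95% Wilson interval of each share, which covers counting error only, reached at most 0.6 percentage points to either side, so the controls differed among themselves by more than counting error. The mean share was 48.4% ± 0.778 after lncSLCC1 siRNA and 48.5% ± 1.40 in controls (SD, n = 3 each). The log2 ratio of LDHA to LDHB reads differed by -0.01 between the groups, less than the SD of 0.081 among controls (exact two-sided permutation p = 0.8, adjusted p = 0.8 over 5 ratios). With 3 against 3 libraries such a test cannot go below 0.1.

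LDHD stood near the limit of what was counted. It had 13, 15 and 12 reads in lncSLCC1 siRNA replicates 1, 2 and 3, against 3, 4 and 7 reads in control replicates 1, 2 and 3, which is 0.864, 0.958 and 0.935 CPM after lncSLCC1 siRNA and 0.214, 0.260 and 0.455 CPM in controls. The groups did not overlap. Its log2 fold change was 1.53 with an SE of 0.378 and a 95% interval of 0.69 to 2.37 (edgeR, adjusted p = 0.0278). The gene passed the filter, of about 0.664 CPM, in all 3 lncSLCC1 siRNA libraries and in 0 of 3 controls, so it could enter the test only by being higher after lncSLCC1 siRNA, and its call is no independent evidence of a change. DESeq2 gave it no adjusted p.

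Of the transporters, SLC16A3 followed the dehydrogenases. It had 46.6, 41.8 and 42.6 CPM in lncSLCC1 siRNA replicates 1, 2 and 3, against 65.5, 55.4 and 54.5 CPM in control replicates 1, 2 and 3. The highest lncSLCC1 siRNA library lay below the lowest control, and control replicate 1 was the highest of all. The mean was 43.7 ± 2.58 CPM after lncSLCC1 siRNA and 58.4 ± 6.12 CPM in controls (SD, n = 3 each; log2 fold change -0.42 with an SE of 0.103 and a 95% interval of -0.65 to -0.19; edgeR, adjusted p = 0.0272). With 547 to 702 reads per lncSLCC1 siRNA library and 837 to 920 per control library, counting error alone was 3.30% to 4.28% per library.

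SLC16A1, the gene of MCT1, overlapped between the groups. It had 387, 383 and 407 CPM in lncSLCC1 siRNA replicates 1, 2 and 3, against 336, 428 and 455 CPM in control replicates 1, 2 and 3. Here control replicate 1 was the lowest of all libraries, while the other controls were the highest. The mean was 392 ± 12.8 CPM after lncSLCC1 siRNA and 406 ± 62.7 CPM in controls (SD, n = 3 each; log2 fold change -0.05 with an SE of 0.109 and a 95% interval of -0.29 to 0.19; edgeR, adjusted p = 0.779). Without control replicate 1 the log2 fold change was -0.17 and the gene was called lower (adjusted p = 0.0156 by edgeR), and without control replicate 3 it was 0.03. Whether SLC16A1 differs between the groups thus rests on control replicate 1. SLC16A1-AS1 is an antisense RNA whose reads cannot be told from those of its partner without a strand setting. Reads assigned to it came to 2.61 ± 0.351 CPM after lncSLCC1 siRNA and 2.19 ± 0.293 CPM in controls (SD, n = 3 each, adjusted p = 0.439 by edgeR). These are not a measure of the reads that overlap SLC16A1. Reads that lie on both genes may be among those counted as ambiguous, which were left out. How many reads, if any, SLC16A1 lost in this way was not tested.

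SLC16A7 had 1 read in lncSLCC1 siRNA replicate 1 and 0 reads in the other 5 libraries, so MCT2 transcripts were near or below what this depth can show. A count of 0 allows up to 3 reads, or 0.192 to 0.234 CPM in a lncSLCC1 siRNA library and 0.195 to 0.214 CPM in a control library. EMB, the gene of the MCT2 partner embigin, likewise had 1 read in lncSLCC1 siRNA replicate 2 and 0 reads elsewhere. Neither gene could be tested.

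BSG, the gene of the MCT1 and MCT4 chaperone, had 646, 619 and 645 CPM in lncSLCC1 siRNA replicates 1, 2 and 3, against 970.1, 800.0 and 745 CPM in control replicates 1, 2 and 3. The lncSLCC1 siRNA libraries were close together and all lay below the controls, of which replicate 1 stood highest. The mean was 637 ± 15.0 CPM after lncSLCC1 siRNA and 838 ± 117 CPM in controls (SD, n = 3 each; log2 fold change -0.40 with an SE of 0.10 and a 95% interval of -0.62 to -0.17; edgeR, adjusted p = 0.0302).

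Within a library, where no scaling between libraries enters, the ratio of SLC16A3 to BSG differed between the groups by less than its own spread. The log2 ratio of SLC16A3 to BSG reads was -3.79, -3.89 and -3.92 in lncSLCC1 siRNA replicates 1, 2 and 3, against -3.89, -3.85 and -3.77 in control replicates 1, 2 and 3. The difference of -0.03 was smaller than the SD within either group, 0.066 after lncSLCC1 siRNA and 0.059 in controls (exact two-sided permutation p = 0.6, adjusted p = 0.75 over 5 ratios). SLC16A3 made up 10.8%, 9.84% and 9.48% of the reads of SLC16A3 plus SLC16A1 in lncSLCC1 siRNA replicates 1, 2 and 3, against 16.3%, 11.4% and 10.7% in control replicates 1, 2 and 3. The log2 ratio of SLC16A3 to SLC16A1 differed by -0.38, about the SD of 0.379 among controls, and that of SLC16A1 to BSG by 0.35, below the SD of 0.429 among controls (exact two-sided permutation p = 0.2 and adjusted p = 0.333 for each). With 1 library left out, the difference in the ratio of SLC16A3 to SLC16A1 ran from -0.51 without control replicate 3 to -0.16 without control replicate 1, and that of SLC16A1 to BSG from 0.11 without control replicate 1 to 0.52 without control replicate 3. The ratio of EMB to BSG (difference 0.96, exact two-sided permutation p = 0.1, the smallest possible, adjusted p = 0.333) rests on 1 EMB read and on the 0.5 added to each count, and is not read further.

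**Figure D2:**
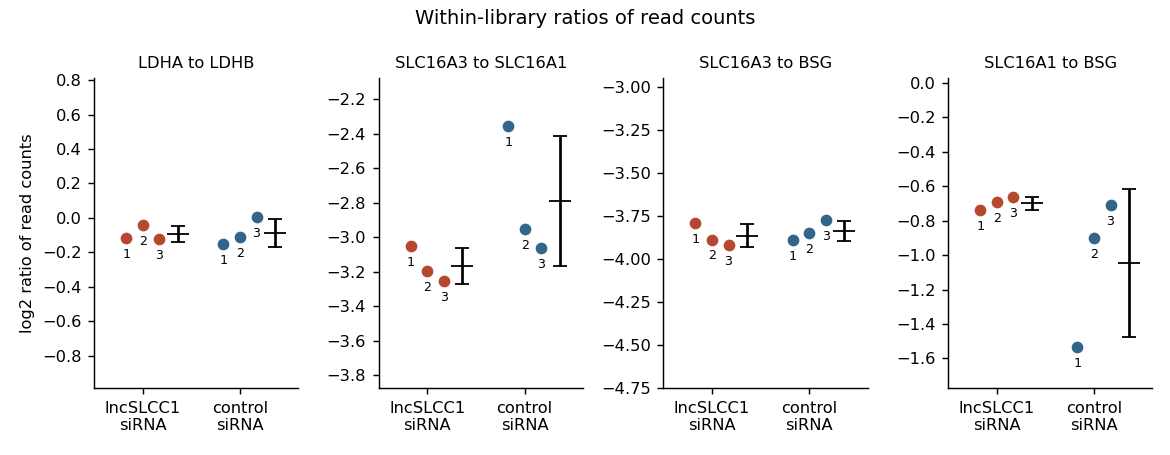
Log2 ratio of read counts within each library (vertical axes, all spanning the same range) for 4 gene pairs, with lncSLCC1 siRNA on the left and control siRNA on the right; digits are replicate numbers and the black bar is the mean with its SD (n = 3). LDHA to LDHB and SLC16A3 to BSG differ by -0.01 and -0.03 between the groups, and both ratios with SLC16A1 are spread among controls by replicate 1.

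Levels were also set side by side per length of the longest annotated transcript, as RPKM (CPM divided by that length in kilobases), a scale that depends on the transcript chosen. The order was LDHB, LDHA, BSG, SLC16A1, SLC16A3, LDHD from high to low in each of the 6 libraries. LDHB stood at 735 ± 32.9 RPKM after lncSLCC1 siRNA and 922 ± 86.3 RPKM in controls, and LDHA at 438 ± 11.3 RPKM after lncSLCC1 siRNA and 552 ± 26.3 RPKM in controls (SD, n = 3 each). BSG followed at 322 ± 7.61 RPKM after lncSLCC1 siRNA and 424 ± 59.3 RPKM in controls (SD, n = 3 each). SLC16A1 had 89.7 ± 2.94 RPKM after lncSLCC1 siRNA and 92.9 ± 14.3 RPKM in controls, and SLC16A3 9.05 ± 0.533 RPKM after lncSLCC1 siRNA and 12.1 ± 1.27 RPKM in controls (SD, n = 3 each). Neighbours in this order did not overlap within either group.

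**Figure D3:**
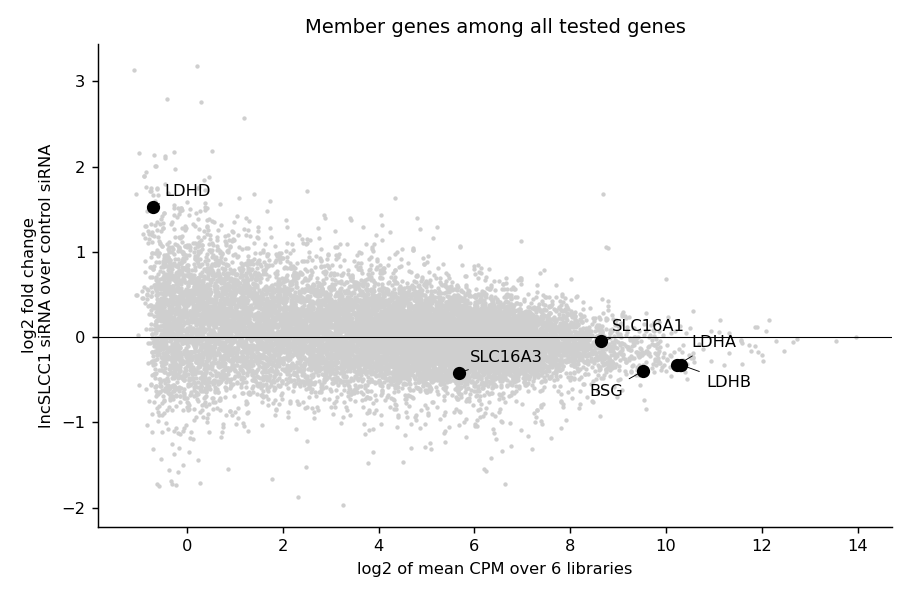
Log2 fold change of lncSLCC1 siRNA over control siRNA (vertical axis) against log2 mean CPM over the 6 libraries (horizontal axis) for all 15242 tested genes (grey), with the 6 tested lactate genes in black. LDHA, LDHB and BSG lie toward the right of the cloud at log2 fold changes of -0.33, -0.33 and -0.40, and LDHD lies at the low end, where fold changes scatter most.

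Reads of LDHA can be split with near-identical pseudogene copies. LDHAP4, a pseudogene, held 564, 549 and 470 reads in lncSLCC1 siRNA replicates 1, 2 and 3, against 671, 595 and 608 in control replicates 1, 2 and 3, and the groups did not overlap in CPM. That is 3.33% to 3.62% of the LDHA reads after lncSLCC1 siRNA and 3.00% to 3.40% in controls, and the share of them that belongs to LDHA was not tested. The log2 fold change of LDHAP4 was -0.21 with an SE of 0.107 (edgeR, adjusted p = 0.213). Of the other 8 listed pseudogenes of LDHA and LDHB, LDHBP1 held 23 reads in all, LDHAP2 and LDHAP5 1 read each, and the rest 0.

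Other genes of lactate transport and pyruvate use, taken from lists of 54 genes, were called about as often as all tested genes. Of 43 tested, 3 were called higher and 4 lower, together 16.3%, against 13.8% of all tested genes by the same edgeR rule, and their median log2 fold change was -0.06. Leaving out control replicate 1 gave 3 higher and 12 lower, against 15.5% of all tested genes called lower in that fit, and leaving out control replicate 3 gave 4 higher and 7 lower, against 13.4%. Leaving out control replicate 2 gave 0 higher and 2 lower, where 3.95% of all tested genes were called in either direction. Each lncSLCC1 siRNA library left out gave 0 higher and 1 lower. In those fits 3.79%, 3.03% and 2.93% of all tested genes were called, without replicate 1, 2 and 3.

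Within the SLC16 family 2 of 8 further tested members were called higher and 0 lower, against 6.46% and 7.39% of all tested genes. SLC16A8, which encodes MCT3, a lactate transporter of the retinal pigment epithelium, averaged 8.96 ± 0.712 CPM after lncSLCC1 siRNA and 5.03 ± 1.17 CPM in controls (SD, n = 3 each; log2 fold change 0.82 with an SE of 0.177; edgeR, adjusted p = 0.0166). SLC16A5, which encodes MCT6, a carrier of drugs such as bumetanide, averaged 26.7 ± 1.18 CPM after lncSLCC1 siRNA and 19.8 ± 1.69 CPM in controls (SD, n = 3 each; log2 fold change 0.44 with an SE of 0.107; edgeR, adjusted p = 0.0273). The other 6 did not pass the test, at log2 fold changes of -0.28 to 0.33. Of the other dehydrogenase genes UEVLD alone was tested (log2 fold change -0.16 with an SE of 0.153; edgeR, adjusted p = 0.504), and LDHC, LDHAL6A and LDHAL6B held 47, 39 and 27 reads in all libraries together. The sodium-coupled lactate transporter genes SLC5A8 and SLC5A12 held 0 and 13 reads and the lactate receptor gene HCAR1 12 reads, so NPTN, which encodes neuroplastin, a relative of basigin, was the 1 gene of that list to be tested (log2 fold change -0.06 with an SE of 0.095; edgeR, adjusted p = 0.677).

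In the list for entry of pyruvate into mitochondria, 1 of 15 genes was called higher and 0 lower. Over all tested genes 6.46% were called higher and 7.39% lower. The riser was PDK4, which encodes a kinase that inhibits pyruvate dehydrogenase, with 30, 32 and 23 reads in lncSLCC1 siRNA replicates 1, 2 and 3, against 8, 4 and 17 reads in control replicates 1, 2 and 3 (log2 fold change 1.58 with an SE of 0.382; edgeR, adjusted p = 0.0259). Like LDHD it passed the filter through the lncSLCC1 siRNA libraries, with 1 of 3 controls above it. The pyruvate carrier genes MPC1 and MPC2 were at log2 fold changes of 0.06 and -0.01. Of 10 genes of the NADH shuttles, which compete with lactate dehydrogenase for cytosolic NADH, MDH2 was the 1 called lower and 0 were called higher. MDH2, the mitochondrial malate dehydrogenase gene, averaged 349 ± 3.95 CPM after lncSLCC1 siRNA and 444 ± 65.5 CPM in controls (SD, n = 3 each; log2 fold change -0.35 with an SE of 0.102; edgeR, adjusted p = 0.0499).

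Lactate leaves the cell with a proton. Of 5 tested genes of acid and bicarbonate transport, 2 were called lower and 0 higher, against 7.39% and 6.46% of all tested genes. No list was tested as a set. CA2, the carbonic anhydrase II gene, averaged 14.2 ± 1.45 CPM after lncSLCC1 siRNA and 25.4 ± 0.615 CPM in controls (SD, n = 3 each; log2 fold change -0.84 with an SE of 0.112; edgeR, adjusted p = 0.00207). SLC4A2, an anion exchanger gene, averaged 158 ± 1.48 CPM after lncSLCC1 siRNA and 207 ± 9.35 CPM in controls (SD, n = 3 each; log2 fold change -0.39 with an SE of 0.073; edgeR, adjusted p = 0.00939). CA9, the hypoxia-induced carbonic anhydrase, held 2 reads in all. In the list for the route that makes D-lactate from methylglyoxal, 1 of 3 genes was called lower and 0 higher, and neither GLO1 nor HAGH was called. That gene was HAGHL, a relative of the glyoxalase II gene HAGH, at 18.0 ± 0.628 CPM after lncSLCC1 siRNA and 25.8 ± 3.96 CPM in controls (SD, n = 3 each; log2 fold change -0.52 with an SE of 0.127; edgeR, adjusted p = 0.0268), while GLO1 and HAGH were at log2 fold changes of -0.12 and -0.01.

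**Figure D4:**
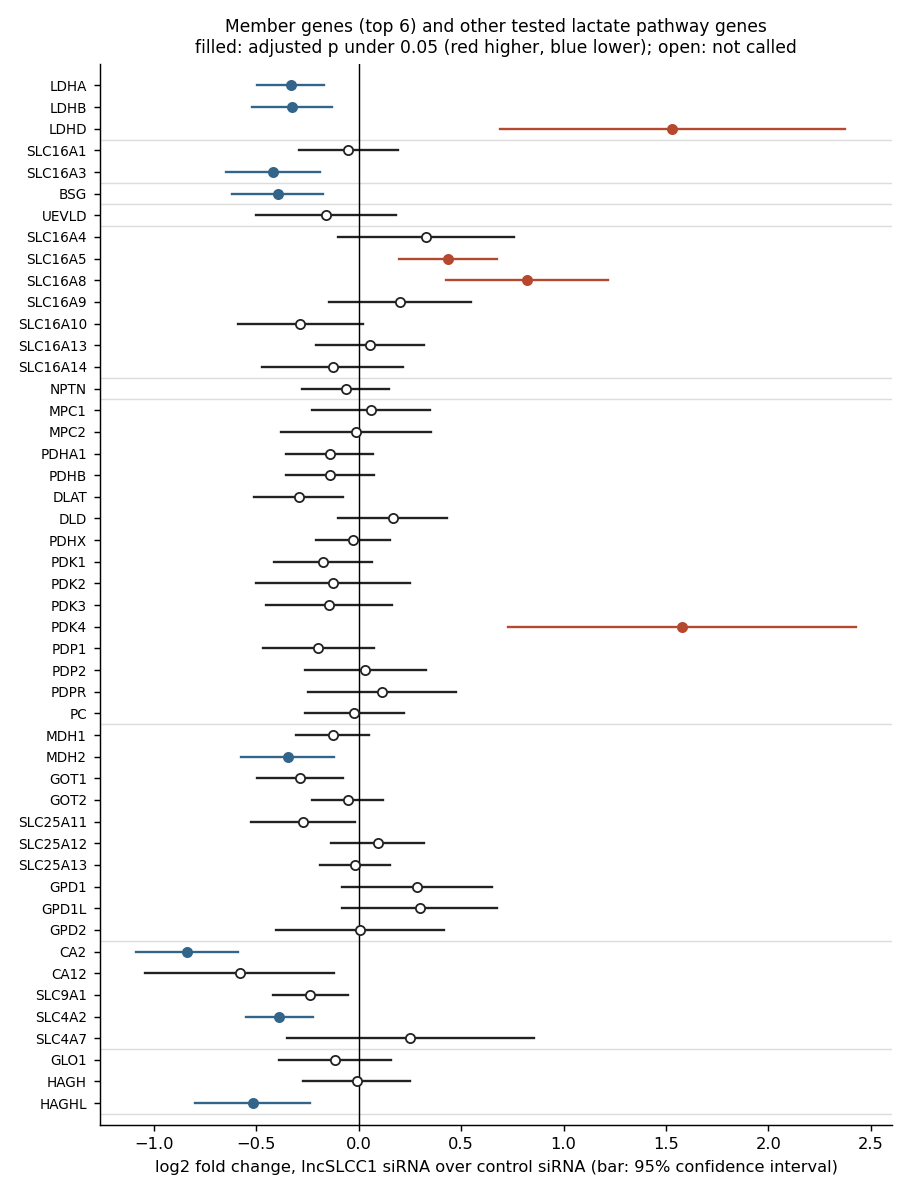
Log2 fold change of lncSLCC1 siRNA over control siRNA (horizontal axis) with its 95% confidence interval for the 6 tested lactate genes (top) and 42 of the 43 other tested genes of the lactate pathway, separated by list. Filled points passed an adjusted p of 0.05 by edgeR (blue lower, red higher); LDHA, LDHB, SLC16A3 and BSG lie between -0.42 and -0.33, and most other genes are open.

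Across the 6 libraries LDHA, LDHB, SLC16A3 and BSG varied together, with Pearson's r of 0.94 to 0.98 between any pair on log2 CPM, while SLC16A1 had r of -0.36 to -0.05 with them. These are descriptions over 6 libraries in 2 groups that share the same group difference. The genes most like LDHA were NELFCD, CCNE1, RNF121, CRABP2 and TTC38 (r of 0.998 to 0.999), and those most like SLC16A3 were GYLTL1B, GINS2, HSD11B2, HMGA1 and UBAC2 (r of 0.996 to 0.999). Such likeness is common here, since 546 of 10475 compared genes had r over 0.95 with LDHA and 671 with SLC16A3.

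The calls of the 4 lower genes depended on which library was left out. Without control replicate 2 or without any one lncSLCC1 siRNA library all 4 lost their call, with adjusted p by edgeR of 0.0583 to 0.116 for LDHA, 0.104 to 0.181 for LDHB, 0.0756 to 0.141 for SLC16A3 and 0.0810 to 0.143 for BSG, while the log2 fold changes kept their sign and size, at -0.36 to -0.32, -0.36 to -0.30, -0.47 to -0.39 and -0.43 to -0.38. Over all tested genes 3.95% were called without control replicate 2 and 3.79%, 3.03% and 2.93% without lncSLCC1 siRNA replicate 1, 2 and 3, so few genes of any kind were called in those fits. Control replicate 1, which had the most ribosomal protein reads, also had the highest LDHA, LDHB, SLC16A3 and BSG, and without it all 4 were still called lower, at log2 fold changes of -0.29, -0.25, -0.33 and -0.28, where 15.5% of tested genes were. At an adjusted p under 0.01 none of the 8 genes was called by edgeR, where 1.65% of tested genes were called higher and 2.15% lower. At an unadjusted p under 0.05 by edgeR, 5 of the 6 tested genes passed, against 31.6% of all tested genes. LDHD is among the 5, although it could enter the test only by being higher after lncSLCC1 siRNA. DESeq2 called the same 4 genes lower, with adjusted p of 0.00358, 0.0190, 0.00926 and 0.0102 for LDHA, LDHB, SLC16A3 and BSG, against 8.12% of tested genes lower and 6.4% higher. Genes called lower made up 6.95% of those tested with the replicate number as a block, 5.57% with no filter on low counts and 16% with offsets for GC content and length, and genes called higher 6.98% at a mean CPM of at least 1.

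**Figure D5:**
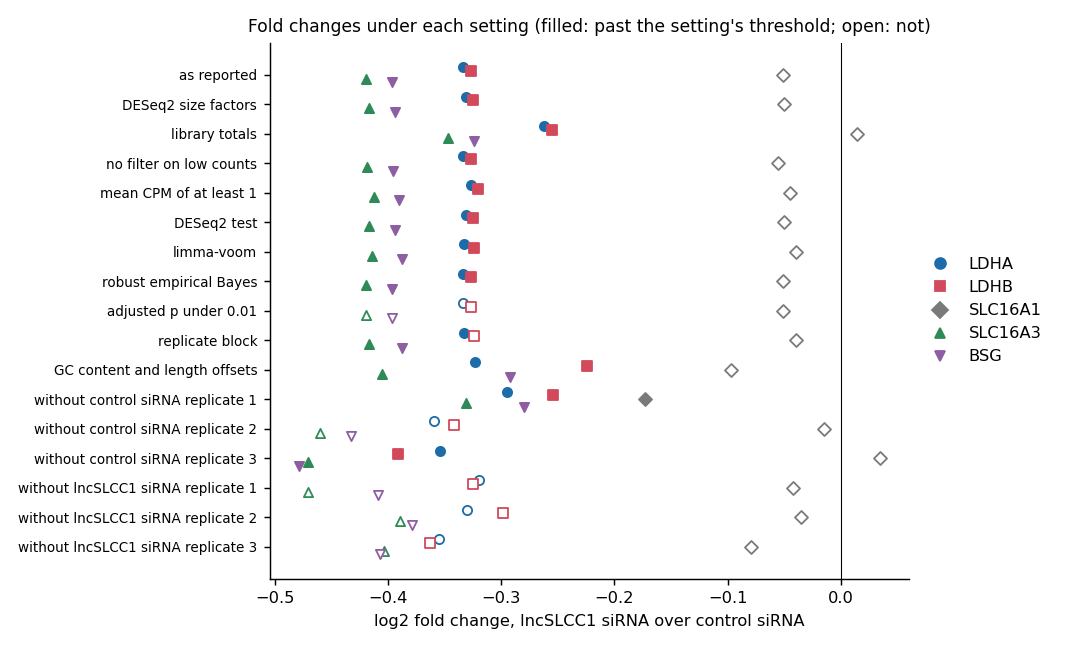
Log2 fold change of lncSLCC1 siRNA over control siRNA (horizontal axis) for LDHA, LDHB, SLC16A1, SLC16A3 and BSG under each way of processing and with each library left out (rows). Filled points passed the threshold of that setting; the 4 lower genes stay between -0.48 and -0.22 throughout, and SLC16A1 is filled only without control replicate 1.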

How the data were processed

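Per the submitters' processing notes, the tools were TopHat2 2.0.11 and HTSeq, and the builds named are hg19 and GRCh37. The deposited files give raw read counts per gene symbol, 1 file per library; no annotation or strand setting is stated, which leaves reads of overlapping genes undivided. The summary lines at the foot of each file (no feature 5.42% to 7.58%, ambiguous 8.83% to 10.1%, not unique 12.8% to 13.8% of all reads and alignments counted) were left out.

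All genes were fitted together by edgeR 4.0.16 (R 4.3.3; quasi-likelihood test, TMM, default filter), with Benjamini-Hochberg adjustment over 15242 genes; CPM use TMM library sizes, and SEs were derived from each F statistic and fold change. The biological coefficient of variation was 10.9%. Ratios of counts had 0.5 added to each. No libraries of a group agreed within sampling noise (chi-square per gene 1.79 to 1.90 between lncSLCC1 siRNA libraries, 5.46 to 28.0 between controls). Lengths are from GENCODE release 29. Alternatives included DESeq2 1.42.0, limma 3.58.1 and each library left out.

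Replicate numbers are those of the sample titles; the names of the deposited tables carry other numbers. Members and lists were chosen with earlier results of these data known. Named are all members, from each other list the called genes (at most 4 of smallest p, or the 1 of smallest p if none), the LDHA and LDHB pseudogenes, the antisense partner, the targeted RNA, and the 5 genes of at least 5 CPM most like LDHA and like SLC16A3 by Pearson's r of log2 (CPM + 0.5). Other genes of the lists (such as LDHC, SLC5A8, MPC1, CA9 and GLO1) and the markers were named after their values were seen. A few list entries are not reported here.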

Additional observations from a re-analysis of the deposited data

How the results depend on the processing

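LDHA, LDHB, SLC16A3 and BSG kept their direction under all 16 alternatives. The adjusted p under 0.01 changes only the cutoff, and robust empirical Bayes left the fold changes as they were, so neither could alter a direction. With GC content and length offsets the falls were less alike. Log2 fold changes were then -0.32 for LDHA, -0.22 for LDHB, -0.41 for SLC16A3 and -0.29 for BSG. The 4 lower and 1 higher calls among the 8 genes became 0 and 0 at an adjusted p under 0.01. There 2.15% of all tested genes were called lower and 1.65% higher. With a library left out the 8 genes gave 0 to 5 lower and 0 to 1 higher. In those fits 1.56% to 15.5% of all tested genes were called lower and 1.37% to 13.5% higher. By DESeq2, which gave LDHD no adjusted p, 0 were higher, against 6.4% of all tested genes. At a mean CPM of at least 1, which drops LDHD, 0 were higher, against 6.98%. The 4 lower and 3 higher calls among the 43 other genes became 2 and 0 at an adjusted p under 0.01, beside the same 2.15% and 1.65%. With no filter on low counts 7 were lower, where 5.57% of all tested genes were called lower. With GC content and length offsets 11 were lower, where 16% of all tested genes were, against 7.39% in the main fit. With a library left out 1 to 12 were lower and 0 to 4 higher, beside 1.56% to 15.5% and 1.37% to 13.5% of all tested genes. The cause was not tested. SLC16A1 turned to a log2 fold change of 0.014 with library totals, where the split of all calls moved to 1442 higher and 814 lower, against 984 and 1126, and ran from -0.17 to 0.034 with a library left out. The log2 ratio of LDHA to LDHB ran from -0.041 to 0.037 and that of SLC16A3 to BSG from -0.065 to 0.0041 with a library left out. Whether the replicate numbers pair the samples is not known from the labels. Deviations of same-numbered libraries correlated at 0.113, -0.0029 and -0.009, and those of differently numbered libraries at -0.108 to 0.120. Such low values cannot exclude a pairing. The replicate numbers are those of the sample titles. Those in the names of the deposited tables would keep the second and the third pair and leave the first unpaired. With the replicate number as a block 3 members were called lower, where 6.95% of all tested genes were. LDHB had an adjusted p of 0.0571 by edgeR at a log2 fold change of -0.32, and LDHA, SLC16A3 and BSG were still called. With about 15 reads or fewer per library, LDHD is limited by depth.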
